A study of Mus musculus with 7 samples.

Results

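UDP-glucuronosyltransferases of families 2 and 3 were examined in whole liver of mice with and without Rbpj, the DNA-binding partner of Notch receptors. The group held 10 genes, chosen by name from the gene names on the array, of 35753 in all: Ugt2a3, Ugt2b1, Ugt2b5, Ugt2b34, Ugt2b35, Ugt2b36, Ugt2b37, Ugt2b38, Ugt3a1 and Ugt3a2. They were measured by 12 probes of 55681, with a pair of probes each for Ugt2b35 and Ugt3a2. The group was chosen with earlier results of these data known. Ugt2a1, a family 2 gene also on the array, was not in it. Of the 10 genes, 8 were lower in Rbpj -/- liver and 0 were higher, where 19.6% of all tested genes were lower and 14.6% higher. Ugt2b1 and Ugt2a3 fell furthest, to 10.3% and 14.1% of the Rbpj +/+ signal, whereas Ugt2b34 and the brighter probe of Ugt2b35 did not pass the test.

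UDP-glucuronosyltransferases are membrane enzymes of the endoplasmic reticulum. Those of family 2 transfer glucuronic acid from UDP-glucuronic acid to steroid hormones, bile acids and drugs, which makes them water-soluble for excretion into bile or urine, and hepatocytes are a main site of this reaction. Enzymes of family 3 use other UDP-sugars, such as UDP-N-acetylglucosamine or UDP-glucose. The glucuronides leave the hepatocyte through ABC transporters, and β-glucuronidase can split them again.

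The Rbpj -/- mice were AlfpCre+ Rbpj flox/flox and the Rbpj +/+ mice AlfpCre- Rbpj flox/flox, so both groups carried the floxed allele and Cre, driven by albumin and alpha-fetoprotein regulatory sequences in the liver's epithelial lineages, was present in the Rbpj -/- mice alone. All were 4 weeks old and on a C57BL/6J background. The 3 Rbpj -/- livers (animals titled Rbpj -/-_N3, Rbpj -/-_N5 and Rbpj -/-_2866) were labelled as cholestatic and the 4 Rbpj +/+ livers (titled Rbpj +/+_1155 and Rbpj +/+_1156, then Rbpj +/+_1024 and last Rbpj +/+_991) as not. Each liver was hybridised to 1 array of a single dye, and the labels used here do not give the sex of the animals. All 7 arrays lay on 1 slide, with the Rbpj +/+ animals in row 1 and the Rbpj -/- animals in row 2, so that slide row and genotype cannot be told apart.

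Values are log2 intensities over the 75th percentile of the same array, and a log2 fold change is the Rbpj -/- mean minus the Rbpj +/+ mean with its standard error (SE). Adjusted p-values come from limma with Benjamini-Hochberg adjustment over 24547 tested probes, at a threshold of 0.1. Between 41.1% and 64.9% of all probes were well above background per array. Precision is limited by having 7 arrays. All 12 probes of the group were well above background on all 7 arrays, so none entered the test through the higher genotype alone. Rbpj itself was lower in Rbpj -/- liver by its brighter probe, with a log2 fold change of −1.13 (SE 0.24, adjusted p = 0.0115) and every Rbpj -/- value below every Rbpj +/+ value. A second probe carries the gene's name but is placed by the array design on chromosome 6, whereas the first is placed on chromosome 5. It had a log2 fold change of −1.63 (SE 0.58, adjusted p = 0.0723), overlapped between genotypes and was well above background on 2 of 3 Rbpj -/- arrays. Whether the probes lie in the deleted part was not examined. Of 16 hepatocyte markers, all were well above background on all 7 arrays, Alb and Serpina1a among them. In whole liver, fewer cells of a type and less RNA per cell cannot be told apart.

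The 8 Ugt2 genes of the group lie in 1 cluster on chromosome 5 in the order Ugt2b34, Ugt2b1, Ugt2b35, Ugt2b36, Ugt2b5, Ugt2b37, Ugt2a3 and Ugt2b38, and Ugt3a1 and Ugt3a2 lie beside each other on chromosome 15. Ugt2a1, on chromosome 5 too but outside the group, is given below with the other Ugt genes. Because the genes of the cluster are similar, the 60-base probes were aligned with each other over all 66 pairs. The probes were not aligned with transcripts, so a short shared run does not show that a probe reads 1 gene alone. A single pair shared a run of 12 bases or more, namely the probes of Ugt2b5 and Ugt2b37, with 47 identical bases of 50 aligned and a shared run of 18 bases. These 30-base stretches of both probes are shown with the shared run in capitals, and signal of either transcript on the other gene's probe was not tested. The Ugt2b5 probe lies at chr5:87554155-87554214 and the Ugt2b37 probe at chr5:87669707-87669766, both on the minus strand (mm9), from base 1650 and base 1629 of the transcripts.
Ugt2b5 probe, bases 1 to 30: gaacaAACTTTCAGCCTCATTCTtatttat
Ugt2b37 probe, bases 5 to 34: tgaatgAACTTTCAGCCTCATTCTaattta

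The probe named for Ugt2b36 is listed in the array design under transcripts of both Ugt2b36 and Ugt2b37 and has no genome position there, so its values belong to either gene or both. The other 11 probes are each listed under 1 gene. The dimmer Ugt3a2 probe starts at base 364 of the transcript and the brighter one at base 1773, and the Ugt2b38 probe lies at chr5:87839345-87839404 on the minus strand (mm9). The Ugt2b36, Ugt2b38 and dimmer Ugt3a2 probes are given whole, because the reading of these genes rests on what the probe can bind.
Ugt2b36 probe: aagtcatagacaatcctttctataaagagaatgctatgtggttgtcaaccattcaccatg
Ugt2b38 probe: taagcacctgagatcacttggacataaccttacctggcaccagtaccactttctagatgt
Ugt3a2 probe, dimmer: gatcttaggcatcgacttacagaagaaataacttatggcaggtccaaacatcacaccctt

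Ugt2b1 had the largest change of the group. Its signal was 4.94, 3.99, 5.12 and 5.76 in the Rbpj +/+ animals, in the order of their titles above, and 0.79, 1.98 and 2.23 in the Rbpj -/- animals N3, N5 and Rbpj -/-_2866. All values by animal follow this order. The groups did not overlap, and the highest Rbpj -/- value lay 1.76 below the lowest Rbpj +/+ value. Ugt2b1 fell 9.74-fold, with a log2 fold change of −3.28 (SE 0.46, adjusted p = 0.00243), and 84 of the 24547 tested probes had a lower log2 fold change. Ugt2a3, whose human counterpart conjugates bile acids, read 5.53, 4.89, 5.71 and 5.93 in Rbpj +/+ and 1.93, 2.85 and 3.29 in Rbpj -/- liver. Again every Rbpj -/- value was below every Rbpj +/+ value, with animal N3 lowest. Ugt2a3 fell 7.10-fold, with a log2 fold change of −2.83 (SE 0.36, adjusted p = 0.00176). The difference between the log2 fold changes of Ugt2b1 and Ugt2a3 was −0.46 (SE 0.19), which did not pass an exact permutation test (p = 0.0857, adjusted p = 0.257 over 9 pairs). With a smallest possible p of 0.0286, 1 pair alone cannot get below 0.257 after adjustment, so the test does not show the changes to be alike.

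Ugt2b5, Ugt2b37 and Ugt2b38 fell between 2.52-fold and 3.13-fold. Ugt2b5 read 7.81, 7.57, 7.49 and 7.58 in Rbpj +/+ and 5.80, 5.99 and 6.27 in Rbpj -/- liver. Ugt2b37 read 7.02, 6.66, 6.62 and 6.80 in Rbpj +/+ and 4.90, 5.12 and 5.37 in Rbpj -/- liver. Ugt2b38 read 8.26, 7.79, 7.91 and 8.18 in Rbpj +/+ and 6.37, 6.80 and 6.93 in Rbpj -/- liver. In all 3 genes the genotypes were apart, and the Rbpj -/- animals stood in the same order, with N3 lowest and Rbpj -/-_2866 highest. The log2 fold changes were −1.59 for Ugt2b5 (SE 0.19, adjusted p = 0.00149), −1.64 for Ugt2b37 (SE 0.20, adjusted p = 0.00154) and −1.33 for Ugt2b38 (SE 0.22, adjusted p = 0.00452). These correspond to 33.2%, 32.0% and 39.7% of the Rbpj +/+ signal. Ugt2b37 and Ugt2b5 differed in log2 fold change by −0.06 (SE 0.04), a difference that did not pass an exact permutation test (p = 0.314, adjusted p = 0.566).

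The sequences before the starts of these 3 genes resemble each other too, as do no others of those examined to that degree. RefSeq windows of GRCm38.p6 were at hand for 9 of the 10 genes, Ugt3a2 being the exception, and the 250 bases before the start were aligned over 36 pairs. Ugt2b37 and Ugt2b38 had 221 identical bases, Ugt2b5 and Ugt2b38 211, and Ugt2b5 and Ugt2b37 196, whereas the next pair, Ugt2b36 and Ugt2b38, had 93. The 3 windows are shown 5′ to 3′ along the gene, all on the minus strand, and capitals mark AGGTCA, the half-site of many nuclear receptors, on either strand. They lie at chr5:87140341-87140590 for Ugt2b5, chr5:87254789-87255038 for Ugt2b37 and chr5:87424204-87424453 for Ugt2b38.
Ugt2b5: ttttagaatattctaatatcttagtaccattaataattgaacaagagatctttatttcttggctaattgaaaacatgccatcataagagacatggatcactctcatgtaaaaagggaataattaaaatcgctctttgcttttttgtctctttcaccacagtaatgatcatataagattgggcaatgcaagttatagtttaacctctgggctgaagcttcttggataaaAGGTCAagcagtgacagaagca
Ugt2b37: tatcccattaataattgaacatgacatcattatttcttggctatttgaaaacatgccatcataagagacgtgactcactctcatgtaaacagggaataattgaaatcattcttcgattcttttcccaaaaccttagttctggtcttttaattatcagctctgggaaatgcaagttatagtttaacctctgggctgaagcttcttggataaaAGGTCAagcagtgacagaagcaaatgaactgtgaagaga
Ugt2b38: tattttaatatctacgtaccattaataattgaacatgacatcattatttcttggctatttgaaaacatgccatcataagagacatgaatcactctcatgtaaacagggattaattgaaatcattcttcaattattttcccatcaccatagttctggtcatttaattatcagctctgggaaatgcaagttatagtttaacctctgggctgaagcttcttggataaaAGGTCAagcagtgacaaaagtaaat

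Next, 5 motifs were searched on both strands of the 300-base windows, which run on for 50 bases past the start, and matches of different motifs could overlap. AGGTCA was found in 5 of the 9 windows, those of Ugt2b5, Ugt2b35, Ugt2b36, Ugt2b37 and Ugt2b38, and in 16.3% of all 32851 windows. The C/EBP element TTGCNNAA was in 4 windows (Ugt2a3, Ugt2b1, Ugt2b36 and Ugt2b5) and in 10.8% of all, and the RBPJ element TGGGAA was in 4 windows (Ugt2b34, Ugt2b37, Ugt2b38 and Ugt3a1) and in 25.6% of all. The HNF4 element CAAAGNNCA and the STAT5 element TTCNNNGAA were in 0 of the 9 windows, and in 6.36% and 8.30% of all windows. A match describes letters only, and the windows of Ugt2b5, Ugt2b37 and Ugt2b38 are so alike that their matches are not separate counts.

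The probe named for Ugt2b36 fell less. It read 7.03, 6.55, 6.79 and 7.08 in Rbpj +/+ and 5.50, 5.93 and 6.22 in Rbpj -/- liver, without overlap. The log2 fold change was −0.98 (SE 0.24, adjusted p = 0.0197), or 50.7% of the Rbpj +/+ signal. It was smaller in size than that of the Ugt2b37 probe by 0.66 (SE 0.12), the most extreme of the 35 splits of the animals (exact permutation test, p = 0.0286, the smallest that 4 against 3 animals can give), although the design lists a Ugt2b37 transcript for both probes. That p-value is for a single comparison and carries no adjustment.

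Ugt2b34 and the brighter probe of Ugt2b35, on both sides of Ugt2b1 in the cluster, had the smallest log2 fold changes of the group and did not pass. Ugt2b34 read 7.03, 6.53, 7.004 and 6.74 in Rbpj +/+ and 6.24, 6.47 and 6.47 in Rbpj -/- liver. The genotypes did not overlap, but they were apart by 0.06 only, and the log2 fold change of −0.43 (SE 0.20) did not pass (adjusted p = 0.147, and 0.0640 without Rbpj +/+_1156). The brighter Ugt2b35 probe read 4.48, 3.71, 3.83 and 4.24 in Rbpj +/+ and 3.45, 4.29 and 3.62 in Rbpj -/- liver. These groups overlapped, with N5 above 3 of the 4 Rbpj +/+ animals, and the log2 fold change was −0.28 (SE 0.28, adjusted p = 0.487). The dimmer Ugt2b35 probe, 1167 bases nearer the start of the transcript, read 1.39, 0.86, 0.88 and 1.06 in Rbpj +/+ and −0.08, 0.87 and −0.11 in Rbpj -/- liver. Only N5 reached the Rbpj +/+ range there. That probe passed with a log2 fold change of −0.82 (SE 0.28, adjusted p = 0.0649), and the call was lost under 8 of 17 alternatives. The log2 fold changes of the Ugt2b35 probes differed by 0.54 (SE 0.12, exact permutation test over 2 such pairs, p = 0.0286, adjusted p = 0.0571), so the gene cannot be given a single value.

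**Figure D1:**
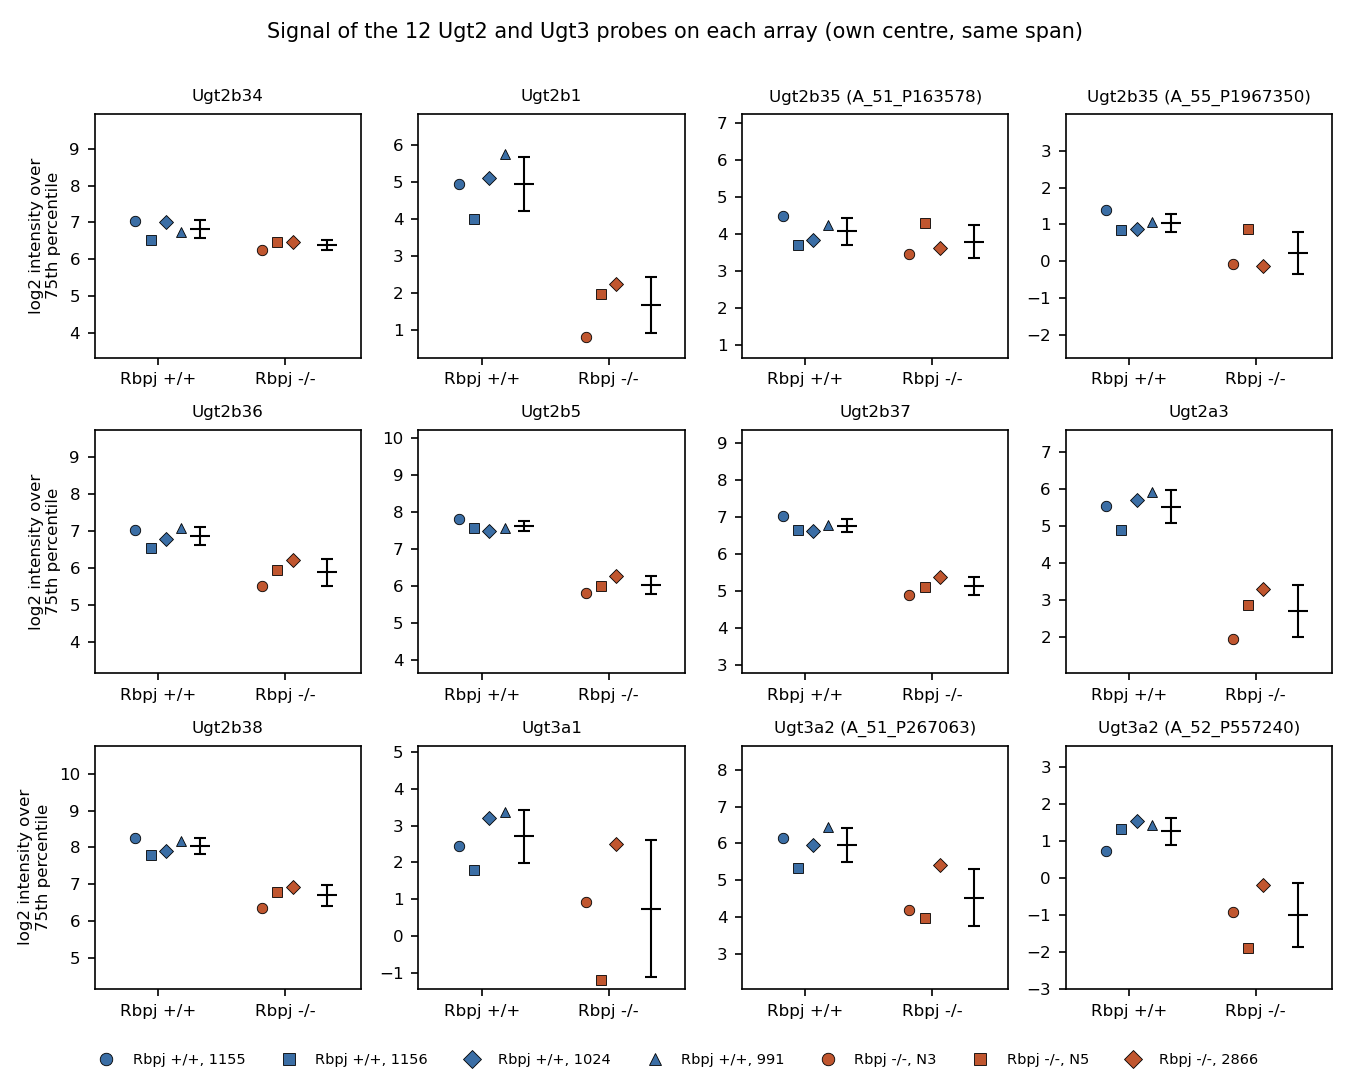
Log2 intensity over the array's 75th percentile (vertical axes) for the 12 probes in both genotypes, 1 point per animal, with the mean and SD as bars; each panel spans the same range around its own centre, so steps can be compared between panels but levels cannot. The genotypes are apart for Ugt2b1, Ugt2a3, Ugt2b5, Ugt2b37, Ugt2b38, Ugt2b36 and the dimmer Ugt3a2 probe, by 0.06 only for Ugt2b34, and overlap for Ugt2b35, Ugt3a1 and the brighter Ugt3a2 probe.

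Both Ugt3 genes were lower, with a wide spread among the Rbpj -/- animals. The brighter Ugt3a2 probe read 6.14, 5.35, 5.96 and 6.44 in Rbpj +/+ and 4.204, 3.97 and 5.41 in Rbpj -/- liver. Rbpj -/-_2866 lay just above Rbpj +/+_1156, and the other two lay below all Rbpj +/+ animals. The log2 fold change was −1.44 (SE 0.38, adjusted p = 0.0276), and without N5 it no longer passed (adjusted p = 0.111). The dimmer Ugt3a2 probe read 0.72, 1.32, 1.55 and 1.44 in Rbpj +/+ and −0.93, −1.91 and −0.20 in Rbpj -/- liver. Here the groups did not overlap, and the log2 fold change was −2.27 (SE 0.39, adjusted p = 0.00552). The difference of 0.82 between the Ugt3a2 probes (SE 0.41) did not pass the exact permutation test (p = 0.114). Ugt3a1 read 2.45, 1.79, 3.21 and 3.36 in Rbpj +/+ and 0.94, −1.19 and 2.51 in Rbpj -/- liver. Rbpj -/-_2866 lay within the Rbpj +/+ range and N5 far below it, and the log2 fold change of −1.95 (SE 0.76, adjusted p = 0.0953) was −0.98 without N5 (adjusted p = 0.281).

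Over the group, 10 of 12 probes were lower at an adjusted p below 0.1 and 0 were higher, where 19.2% of all tested probes were lower. With each gene read by its tested probe of highest mean signal, 8 of 10 genes were lower, and 18781 genes were tested in all. Ugt2b36, among the 8, was read by the probe that is also listed for Ugt2b37. Every Rbpj -/- value lay below every Rbpj +/+ value for 8 of the 12 probes, and for 20.6% of all tested probes. Over the 10 genes the log2 fold change had a median of −1.52, compared with −0.13 for all tested genes. In the order of log2 fold change, Ugt2b1 came first, followed by Ugt2a3, Ugt3a1, Ugt2b37, Ugt2b5, Ugt3a2, Ugt2b38, Ugt2b36, Ugt2b34 and Ugt2b35. None of the 9 neighbouring pairs in this order differed after adjustment (exact two-sided permutation tests, lowest adjusted p = 0.257, which is the lowest that 1 pair alone can reach over 9 pairs). This order uses the brighter probe of Ugt2b35 and of Ugt3a2. Along the chromosome 5 cluster, Ugt2b1 with the largest change lies between Ugt2b34 and Ugt2b35, neither of which passed by that probe.

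**Figure D2:**
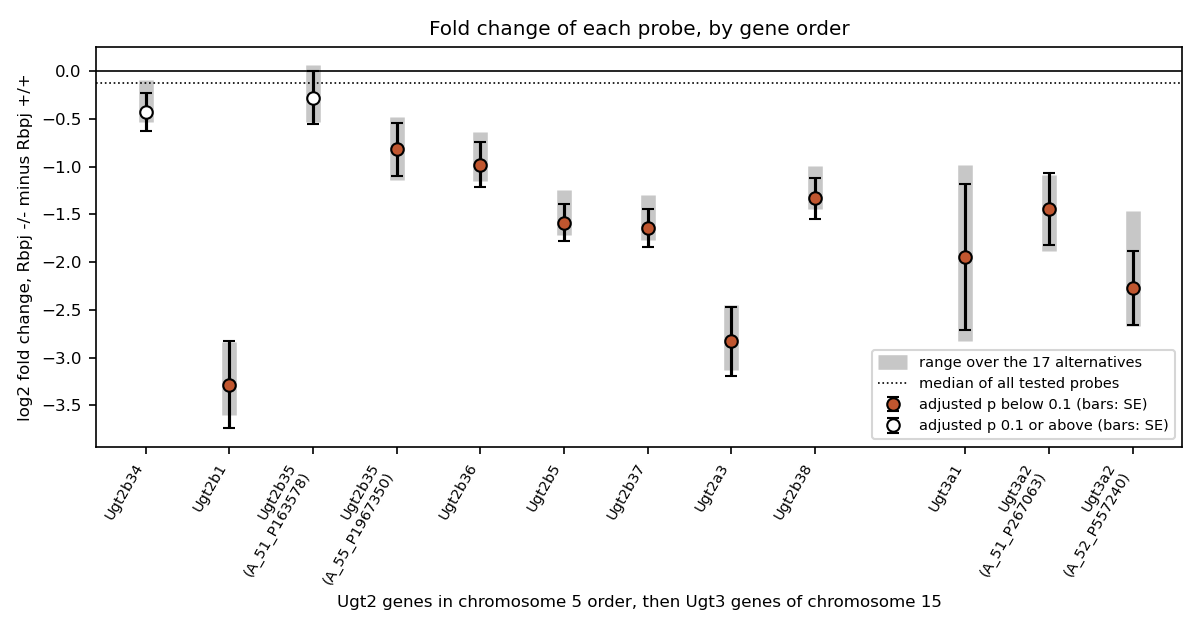
Log2 fold change (vertical axis, Rbpj -/- minus Rbpj +/+) of each probe with its SE, the Ugt2 genes in their order on chromosome 5 and the Ugt3 genes of chromosome 15 to the right; grey bars give the range over 17 alternative ways of processing, and the dotted line is the median of all tested probes. Ugt2b1 (−3.28) and Ugt2a3 (−2.83) stand lowest, and open points mark Ugt2b34 and the brighter Ugt2b35 probe, which did not pass.

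The Rbpj -/- animals also differed from each other. N3 was the lowest Rbpj -/- animal in 8 of 9 Ugt2 probes and Rbpj -/-_2866 the highest in 6 of 9. In the 3 Ugt3 probes N5 was the lowest and Rbpj -/-_2866 the highest throughout. Among Rbpj +/+ animals, Rbpj +/+_1156 was the lowest in 7 of 9 Ugt2 and 2 of 3 Ugt3 probes. The mean over the 10 genes was 6.07, 5.48, 5.96 and 6.21 in the Rbpj +/+ animals and 4.01, 4.22 and 4.83 in the Rbpj -/- animals. N3 and Rbpj +/+_1156 stood apart in the arrays themselves, with 64.9% and 61.8% of all probes well above background, against 41.1% to 47.7% on the others, and with median intensities of 29.6 and 18.7, against 4.99 to 7.75. The order was not particular to the Ugt genes, as the mean of 16 hepatocyte markers was 7.66, 7.37, 8.00 and 7.89 in Rbpj +/+ and 7.202, 7.39 and 7.58 in Rbpj -/- liver, with the same animals lowest. The part of these array differences in the order of the animals was not tested.

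Markers of liver cells moved with the genotype as well, and their part in the Ugt values was not tested. Of the 16 hepatocyte markers, 8 were lower and 0 higher, with a median log2 fold change of −0.50, and their mean overlapped between the genotypes. Relative to that mean the median of the 10 Ugt genes was −1.17 and 8 of 12 probes were lower. Markers of other cells rose in 7 of 8 tested macrophage genes, with list means of 2.82 to 3.34 in Rbpj +/+ and 4.74 to 4.94 in Rbpj -/- liver. They rose in 7 of 8 stellate cell and fibroblast genes (0.86 to 1.41 and 2.17 to 3.18) and 5 of 9 cholangiocyte genes (−1.26 to −0.58 and −0.21 to 0.16), where Krt19 and Krt7 did not pass and Epcam was not tested for lack of signal. Of the 8 stellate cell and fibroblast genes, 6 were well above background on all 7 arrays. Timp1 (log2 fold change 4.81) was so on 2 of 4 Rbpj +/+ arrays, and Des, which did not pass, on 1 of 4. Both could be tested through the Rbpj -/- arrays alone, so the count and means of that list are descriptive. Of 7 endothelial genes 2 rose and 1 fell. The gene that fell was Kdr (log2 fold change −1.19, adjusted p = 0.00689), whose second probe did not pass (0.01, adjusted p = 0.973). Gut and kidney also use Ugt genes, and 6 of 8 enterocyte and 6 of 7 kidney tubule markers had too little signal over background to be tested. Of the enterocyte genes that could be, Fabp2 was lower (log2 fold change −2.20, SE 0.35, adjusted p = 0.00429) and Vil1, well above background on 2 of 4 Rbpj +/+ arrays, was higher (1.26, SE 0.19, adjusted p = 0.00334).

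Genes that are sex-biased in mouse liver moved widely too. Of 17 genes with male-biased expression 16 were lower and 0 higher, with list means of 6.20 to 7.08 in Rbpj +/+ and 0.94 to 2.37 in Rbpj -/- liver. Of 14 female-biased genes 7 were higher and 1 lower (0.25 to 0.85 and 1.78 to 3.67). Of these, 12 of the 17 and 10 of the 14 were well above background on all 7 arrays. The others, Cyp4a12b, Hsd3b5, Serpina4-ps1, Elovl3 and Slco1a1 of the first list and Cyp2b9, Cyp2b13, Sult2a1 and Sult2a2 of the second, could be tested through the genotype where they are high, so the counts and means describe the lists and support nothing further. The Y-linked genes Ddx3y and Eif2s3y were well above background on all 7 arrays. The part of these differences in the Ugt values was not tested.

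**Figure D3:**
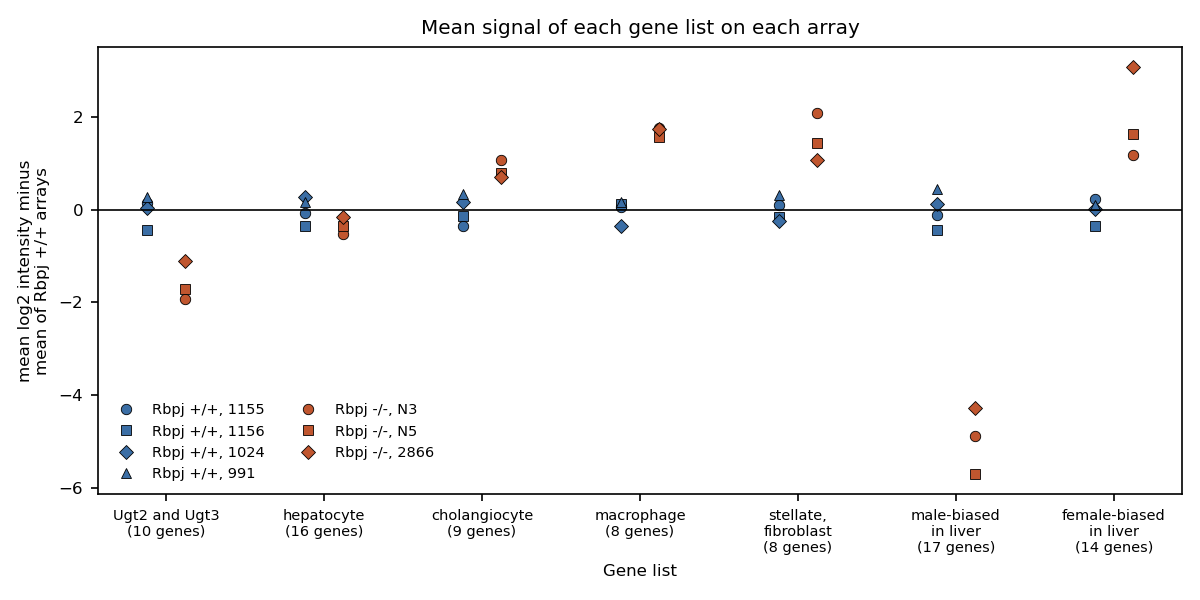
Mean log2 intensity of each gene list on each array minus the mean of the 4 Rbpj +/+ arrays (vertical axis), 1 point per animal and list. The 10 Ugt genes lie below 0 in all 3 Rbpj -/- animals, the hepatocyte list is nearer to 0, the macrophage and stellate lists lie above 0, and the male-biased list lies furthest below.

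Other genes of the pathway are given beside the 19.6% of all tested genes that were lower and the 14.6% that were higher, and a list's count near these shares is no result about the list. Of 3 other Ugt genes that could be tested, all of the Ugt1a locus, 3 were lower, with a median of −1.50. The probe named for Ugt1a10 fell by 2.72 on the log2 scale (SE 0.52, adjusted p = 0.00855) and is also listed for Ugt1a9. The probes named for Ugt1a6a (log2 fold change −1.50, adjusted p = 0.0258) and Ugt1a6b (−0.66, adjusted p = 0.0718) are each listed for 4 genes, since the transcripts of that locus share their last exons. A second Ugt1a6b probe, listed for that gene alone, did not pass (log2 fold change 0.33, adjusted p = 0.377). The Ugt2a1 probe, also listed for Ugt2a2, was well above background on 3 of 4 Rbpj +/+ and 0 of 3 Rbpj -/- arrays, and Ugt8a on none.

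Of 10 genes that supply UDP-sugars, 1 was higher and 2 were lower, with a median of 0.05, which is close to the shares of all tested genes (14.6% higher and 19.6% lower). Slc35d1 and Slc35d2, which carry UDP-sugars into the endoplasmic reticulum and Golgi, had log2 fold changes of −0.65 (SE 0.19, adjusted p = 0.0399) and −0.72 (SE 0.22, adjusted p = 0.0436). Pgm2, a phosphoglucomutase that the array names Pgm1, was higher by 1.83 (SE 0.23, adjusted p = 0.00179). Pgm1, which the array names Pgm2, had a far brighter probe (Rbpj +/+ mean 6.86, against −2.28). It did not pass (log2 fold change 0.03, adjusted p = 0.940). Ugdh, the enzyme that makes UDP-glucuronic acid, read 5.82, 5.74, 5.63 and 6.09 in Rbpj +/+ and 5.83, 6.51 and 6.66 in Rbpj -/- liver and did not pass (log2 fold change 0.51, adjusted p = 0.159).

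Of 9 genes for transport and cleavage of glucuronides, 2 were higher and 4 lower, with a median of −0.26. Slco1a1 and Slco1b2, uptake transporters of the sinusoidal membrane, had log2 fold changes of −7.87 (SE 0.36, adjusted p = 3.6e-05) and −1.39 (SE 0.27, adjusted p = 0.00870), and Slco1a1 was well above background on 2 of 3 Rbpj -/- arrays. Ces1e, or egasyn, which holds β-glucuronidase in the endoplasmic reticulum, was lower, with a log2 fold change of −2.49 (SE 0.42, adjusted p = 0.00499), as was the canalicular exporter Abcg2, with −0.88 (SE 0.29, adjusted p = 0.0599). Abcc4, a basolateral exporter, was higher by 2.11 (SE 0.31, adjusted p = 0.00297), and Gusb, β-glucuronidase itself, by 1.40 (SE 0.26, adjusted p = 0.00776). The main glucuronide exporters Abcc2 (0.10, adjusted p = 0.771) and Abcc3 (−0.14, adjusted p = 0.641) did not pass.

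Of 15 tested regulators of Ugt genes, 1 was higher and 5 lower, with a median of −0.47, against 14.6% higher and 19.6% lower among all tested genes. The nuclear receptors Nr1h4, the bile acid receptor, and Ppara, a fatty acid receptor, had log2 fold changes of −1.52 (SE 0.23, adjusted p = 0.00321) and −1.40 (SE 0.28, adjusted p = 0.00962). Nr1h4 read 6.03, 5.78, 5.84 and 5.65 in Rbpj +/+ and 3.94, 4.25 and 4.72 in Rbpj -/- liver, without overlap. Cebpa (−1.01, adjusted p = 0.0877), Foxa1 (−0.97, adjusted p = 0.0766) and Rxra (−0.53, adjusted p = 0.0540) were lower, and Ahr, the dioxin receptor, was higher (0.80, adjusted p = 0.0508). A second Rxra probe did not pass (−0.13, adjusted p = 0.734). The xenobiotic receptors Nr1i2 (0.01, adjusted p = 0.985) and Nr1i3 (−0.47, adjusted p = 0.191) and the hepatocyte factor Hnf4a (−0.32, adjusted p = 0.216) did not pass.

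**Figure D4:**
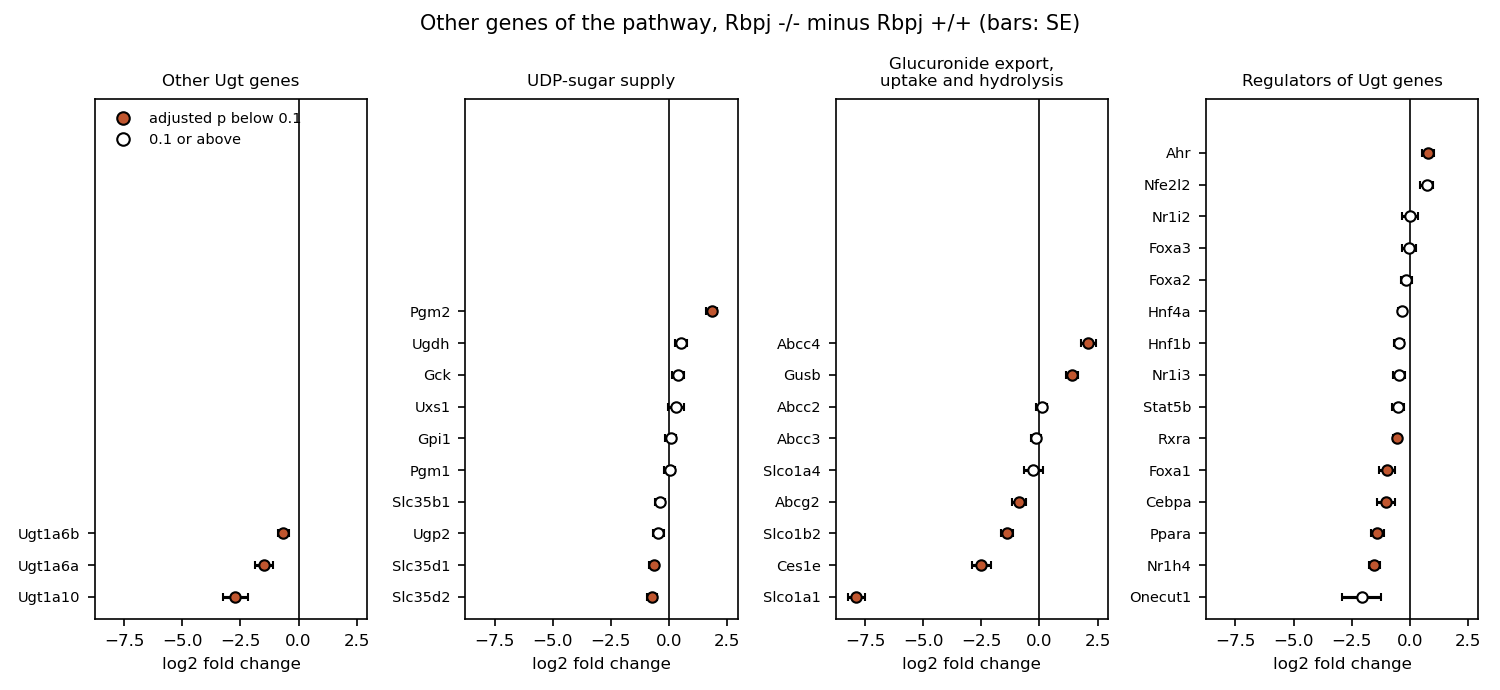
Log2 fold change (horizontal axis, Rbpj -/- minus Rbpj +/+) with its SE for the tested genes of 4 lists, each gene read by its brightest tested probe; filled points passed at an adjusted p below 0.1. All 3 other Ugt genes lie left of 0, while most genes of UDP-sugar supply lie near 0 and the regulators run from Nr1h4 (−1.52) and Ppara (−1.40) to Ahr (0.80), with Onecut1 further left but not passing.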

How the data were processed

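Whole liver RNA of 7 mice was measured on 1-colour Agilent arrays. The intensity values deposited by the authors are the background-subtracted processed signals of Feature Extraction (version 10.7.3.1, per the submitters' processing notes), not normalized between arrays. The series matrix that the authors deposited holds log2 values shifted to a median baseline per probe and was used as an alternative. Spots that the scanner software flagged for uneven pixels or as outliers of their replicates were dropped (1186 probe values), repeat spots of a probe were averaged after log2, and each array's 75th percentile was subtracted. To be tested, a probe had to carry the scanner marks for a positive, significant signal that stood well over background in every animal of 1 genotype or both. The test was that of limma (version 3.58.1, R 4.3.3), which stood in for the shrinkage t statistic of the study's methods, not run here. In simulated data with 24547 probes, of which 200 were changed by 2 on the log2 scale, 166 were recovered with 19 false calls, and 0 were called with nothing changed. The simulated noise was independent between probes and held no array-wide differences, so these counts do not give the error rate on the real arrays.

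Probe identity, position (mm9) and sequence came from the scanner files, promoter windows and current symbols from RefSeq tables (GRCm38.p6), with 30540 of 55681 probes matched to a current symbol. Alignments used Biopython 1.88. Named were all 10 genes with every probe, the genes of the 4 pathway lists past the threshold (at most 6 of largest change in each), Rbpj, and the 5 genes most like Ugt2b1 over the arrays. Of the lists, 2 genes are not reported here. Other list genes were named after their values were seen. The members and lists were chosen with earlier results of these data known. Alternatives changed the background correction, scaling, filter, flags, variance model, threshold, source of values, and left out each animal. The scaling to the hepatocyte list was chosen after seeing the data.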

Additional observations from a re-analysis of the deposited data

Results flagged for a closer look

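Among the 4 Rbpj +/+ animals, 1 animal stood far from the other 3 in 6 of 49 genes or probes examined, where chance gives about 1 in 20 for a single gene. All 49 were read in the same 4 animals, so they are not separate trials and their count cannot be set against that rate. None of the 12 Ugt2 and Ugt3 probes was among them. The gap to the nearest animal, as a share of the group's range, was 0.882 for Slc35d1 (Rbpj +/+_1155 low, 3.95 against 4.28), 0.941 for Uxs1 (Rbpj +/+_1156 high, −0.29 against −1.45) and 0.951 for Gpi1 (Rbpj +/+_1024 high, 7.21 against 6.77). It was 0.874 for Slco1b2 (Rbpj +/+_1024 high, 8.63 against 8.32) and 0.892 for Slco1a4 (Rbpj +/+_1024 high, 2.46 against 1.29). It was 0.8292 for Foxa1 (Rbpj +/+_1024 high, 3.66 against 2.49).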

How the results depend on the processing

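Over 17 alternatives, 204 values of the 12 probes were recomputed, of which 179 kept direction and call, 22 lost the call, 2 gained it and 1 changed sign. The probes of Ugt2b1, Ugt2a3, Ugt2b5, Ugt2b37 and Ugt2b38 and the dimmer Ugt3a2 probe passed under all 17. Ugt3a1 lost its call under 11, the dimmer Ugt2b35 probe under 8, the brighter Ugt3a2 probe under 2 and Ugt2b36 under 1. Ugt2b34 passed under 2. Without the filter on dim probes, 6 of 12 probes were lower in place of 10, 9 other pathway genes passed in place of 18, and 2038 of 55681 probes passed in place of 8241 of 24547, in a test over more probes. Leaving out 1 animal at a time gave 8 to 11 member probes, medians of −1.74 to −1.28, 8 to 10 probes without overlap, 9 to 18 other pathway genes and 4673 to 9019 probes in all. Of these, 9 pathway genes and 4673 probes came without N5, and 5468 probes without Rbpj +/+_1024, and the cause was not tested. Relative to the hepatocyte list, every log2 fold change rose by 0.34, the brighter Ugt2b35 probe turned to 0.0610, and calls lower in Rbpj -/- were 21.3% of all calls in place of 57.3%. Relative to the median of all probes, the members' median was −1.40 both ways, as it must be when all log2 fold changes shift alike. Quantile normalization gave 48.7% lower calls and 9 member probes, and the series matrix 48.4% and 9. Their log2 fold changes nearly matched (−2.718 and −2.716 for Ugt2a3, −0.150 and −0.146 for Ugt2b34), so they are hardly separate alternatives. No paired analysis was possible because the genotypes share no replicate numbers.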

Other observations

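The 3 nearest tested genes on each side of the Ugt clusters moved in both directions, with 2 lower, 2 higher and 2 not passing on chromosome 5 and 3 lower, 1 higher and 2 not passing on chromosome 15. Beyond the chromosome 5 cluster, Sult1b1, a sulfotransferase, had a log2 fold change of −1.63 (SE 0.32, adjusted p = 0.00893) and Sult1e1, the estrogen sulfotransferase, of 6.29 (SE 1.10, adjusted p = 0.00609), and on its other side Stap1 was lower (−2.45, adjusted p = 0.0110), Uba6 higher (0.56, adjusted p = 0.0845) and Ythdc1 did not pass (0.12, adjusted p = 0.630). Beside Ugt3a1 and Ugt3a2 on chromosome 15, Prlr, the prolactin receptor, was lower (−2.32, adjusted p = 0.0138) and Skp2 higher (1.03, adjusted p = 0.00776). These neighbours were named after their values were seen.

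Among genes outside the group, those whose pattern over the 7 arrays was most like that of Ugt2b1, by the root mean square difference of values centred on each probe's mean, were 3 intergenic transcripts that the array names by position (0.262, 0.314 and 0.355), Vmn1r214 (0.375) and Fras1 (0.407). Ugt2a3, at 0.308, lay between the first and the second of these.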
